A study of Mus musculus with 2 samples.

Results

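Among the protein-coding genes of the mouse autosomes, 331 had a promoter rich in CpG dinucleotides and no DNase-seq peak in thymus. They were found in the GENCODE M21 annotation of mm10 as genes with 53 or more CpGs within 500 bp either side of the gene's 5' end and no peak within 1 kb of any annotated transcription start site (TSS) in any of the 4 deposited peak lists, 2 per sample. The annotation held 20807 autosomal protein-coding genes, of which 8634 were CpG-rich, and 3.83% of the CpG-rich genes (95% Wilson interval 3.45 to 4.26) were without a peak. These genes are called closed below, a word that stands for the peak calls only. The shorter peak list of each sample is called strict and the longer one loose, by their lengths only. The comparison groups were 7754 open genes (89.8%), which had a peak of the strict list in both samples, and 549 partly open genes (6.36%), which had a peak in some list but not in both strict lists. The genes were chosen by the peak calls of these same samples, so these counts are a description and no test was made on them.

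Both samples were thymus tissue of 2-month-old male B6CASTF1/J mice with no treatment given, the first-generation hybrids of a C57BL/6J and a CAST/EiJ parent, and they formed a single group of 2 biological replicates. The labels number a separate animal for each replicate but give both the same donor identifier, and all positions refer to the C57BL/6J reference. DNase-seq maps DNA that the enzyme DNase I can cut in nuclei, and the authors deposited for each replicate peaks, a track of false discovery rates (FDR) of the cut rate, and footprints, which are short protected stretches within accessible DNA. The strict lists held 63832 peaks in replicate 1 and 67929 in replicate 2, and the loose lists held 91754 and 100264. Of 10 thymocyte marker genes, 9 had a strict promoter peak in both replicates, Dntt being the exception, against 3 of 7 thymic epithelial markers, 1 of 5 B cell, 1 of 5 dendritic cell, 0 of 4 macrophage, 2 of 5 fibroblast, 2 of 4 endothelial, 1 of 4 erythroid and 2 of 3 autosomal neuronal markers. None of the listed markers of any cell type was among the closed genes. Only CpG-rich genes could be closed, and how many of the markers were CpG-rich is not given. The absence of markers among the closed genes therefore says nothing about the cell types. In a whole tissue, a promoter open in few cells and a promoter slightly accessible in many cells cannot be told apart, and either may lie below the peak callers' limit.

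Most mammalian promoters that lie in CpG islands keep a nucleosome-depleted stretch in nearly all cell types, held by factors of constitutive transcription such as NRF1, ETS and CREB family proteins, and their CpGs stay unmethylated. A minority belong to regulators of embryonic patterning, which Polycomb complexes hold inactive outside their own tissue, or to germline and imprinted genes, which can be silenced by methylation of their CpGs.

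Printed sequences show how dense in CpGs the closed promoters are. The 150 bases just upstream of the 5' end are given for 4 closed genes of different roles and for 1 open housekeeping gene, Rpl36al, picked because its 120 CpGs within 500 bp are nearest to the 119 of Six2. Capitals mark CpGs, all sequences are from mm10 and run 5' to 3' on the gene's strand. Six2, a homeobox regulator of nephron progenitors, is shown at chr17:85688275-85688424 on the minus strand, with 14 CpGs in the stretch. Hoxd13, a limb patterning gene, is shown at chr2:74668160-74668309 on the plus strand, with 21. Wnt6, which encodes a secreted ligand, is shown at chr1:74771742-74771891 on the plus strand, with 17. Mael, a gene of transposon silencing in the germline, is shown at chr1:166238748-166238897 on the minus strand, with 12. Rpl36al, a ribosomal protein gene, is shown at chr12:69184084-69184233 on the minus strand, with 19.
Six2: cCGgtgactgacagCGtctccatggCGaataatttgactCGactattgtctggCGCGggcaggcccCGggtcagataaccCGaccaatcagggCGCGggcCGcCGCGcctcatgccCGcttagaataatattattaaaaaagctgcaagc
Hoxd13: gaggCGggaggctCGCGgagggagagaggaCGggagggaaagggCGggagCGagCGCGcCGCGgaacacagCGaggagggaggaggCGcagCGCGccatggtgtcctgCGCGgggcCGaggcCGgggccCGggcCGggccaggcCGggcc
Wnt6: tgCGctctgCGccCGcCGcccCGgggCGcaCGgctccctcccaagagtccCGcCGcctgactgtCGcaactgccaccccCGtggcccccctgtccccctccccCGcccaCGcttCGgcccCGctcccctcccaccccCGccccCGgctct
Mael: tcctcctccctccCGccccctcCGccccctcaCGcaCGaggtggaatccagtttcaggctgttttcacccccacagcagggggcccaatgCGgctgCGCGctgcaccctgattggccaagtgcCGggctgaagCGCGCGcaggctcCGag
Rpl36al: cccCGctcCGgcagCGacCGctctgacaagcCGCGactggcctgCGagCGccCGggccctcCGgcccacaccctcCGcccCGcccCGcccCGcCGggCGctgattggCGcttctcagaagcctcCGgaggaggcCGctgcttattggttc

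The closed genes had a median of 68 CpGs within 500 bp of the 5' end (quartiles 58 and 85), and the open genes had a median of 76. Their median GC content was 63.3% against 62.2%, and their median ratio of observed to expected CpGs was 0.722 against 0.809. Sequence counted as CpG-dense, in 200-bp windows with GC of at least 50% and a CpG ratio of at least 0.6, ran for a median of 700 bp around closed and 800 bp around open 5' ends. Both groups overlapped widely in these measures. The share of closed genes was highest just above the CpG limit, at 6.82% of 1408 genes with 53 to 59 CpGs, and was 4.23% with 60 to 69. It lay between 2.98% and 3.22% in the 4 bins from 70 to 119 CpGs and was 1.52% (8 genes of 525; 0.774 to 2.98) with 120 to 172. At the limit itself, 13 of 207 genes with 53 CpGs were closed, among them Ccdc105, Grin3b and Hand2, and 6 of 203 genes with 52 CpGs had no peak, among them Doc2a, Gm5868 and Krt87. With 51 CpGs it was 15 of 199, so the share did not move one way across the limit.

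**Figure D1:**
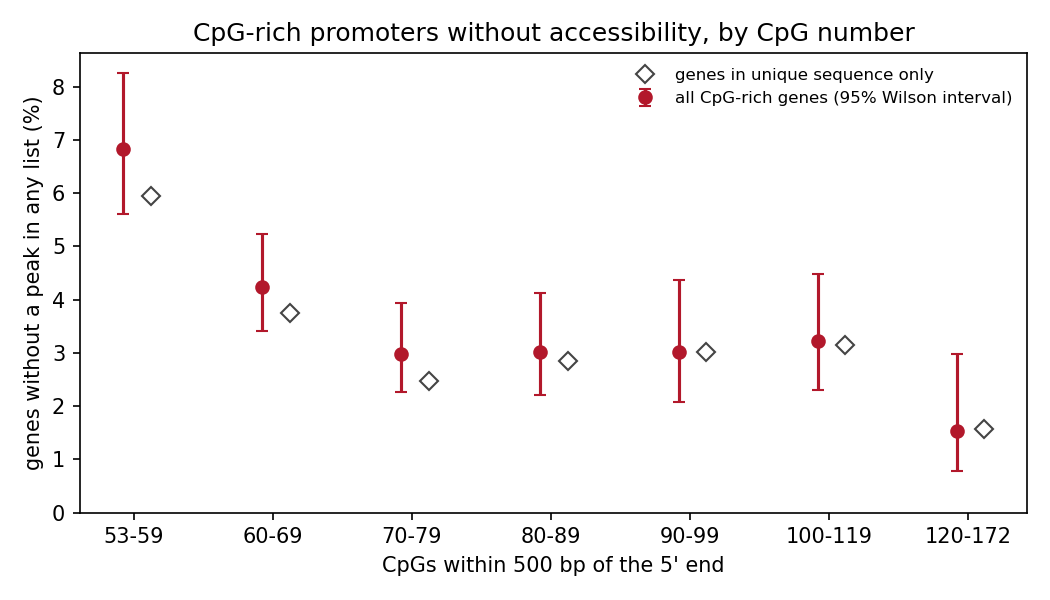
Share of CpG-rich genes without a peak in any of the 4 lists (vertical axis, %) by the number of CpGs within 500 bp of the 5' end (horizontal axis); filled points are all genes with 95% Wilson intervals, open diamonds the genes in unique sequence. The share is 6.82% at 53 to 59 CpGs and 1.52% at 120 to 172.

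The 10 closed genes with the most CpGs were Tmem200b and Shisa6 (150 each), Trank1 (138), Wtip (135), She (126), Grik3 (125), Zdbf2 (121), Igfbp3 (120), Six2 (119) and, first by name among the 4 with 118, Hmx1. They have no common role: Grik3 encodes a glutamate receptor subunit, Igfbp3 a carrier of insulin-like growth factors, Zdbf2 is imprinted, and Six2 and Hmx1 encode homeodomain factors. The nearest peak of any list lay 5011 bp from the 5' end of Tmem200b, 84973 bp from that of Shisa6 and 1861 bp from that of Igfbp3.

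Closed genes had simpler annotations than open ones. Their median number of annotated TSSs was 2 against 5, and 36.6% of them had a single TSS against 10.3% of the open genes. A gene with more TSSs had more windows in which a peak could fall, so the rule itself favours genes with few. When peaks were looked for around the 5' end alone, 389 genes were without one in place of 331. A transcript of the best annotation support level started at the 5' end in 74.3% of closed and 84.0% of open genes. The median gene length was 17577 bp for closed and 27522 bp for open genes.

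Developmental transcription factors made up 69 of the 331 closed genes (20.8%). The 69 belonged to 8 lists of such factors and were 24.6% of the 281 CpG-rich genes on those lists, beside 3.83% of all CpG-rich genes. Of 19 CpG-rich Hox genes, which specify position along the body axis, 9 were closed (47.4%; 27.3 to 68.3), 6 partly open and 4 open. Of 92 other CpG-rich homeobox genes, 31 were closed (33.7%; 24.9 to 43.8), 29 partly open and 32 open. Outside the Hox genes, the closed homeobox genes with the most CpGs were Six2, Hmx1, Nkx1-1, Barx1 and Irx1, with 111 to 119. All 3 CpG-rich Pax genes were closed: Pax2 and Pax3, which act in kidney and neural crest, and Pax7, a marker of muscle stem cells. The shares were 8 of 33 for basic helix-loop-helix genes, with Bhlhe23, Twist2 and Neurog1 highest in CpGs, 6 of 27 for forkhead genes, with Foxf1, Foxf2 and Foxl2, 2 of 7 for T-box genes, with Tbx2, and 2 of 14 for Sox genes, with Sox11 and Sox18. The list of developmental zinc finger and other factors had 8 closed of 86 (9.30%; 4.79 to 17.3), led by Glis1, Dmrta2 and Nr2f1. Without replicate 1 it had 17 (19.8%), and without replicate 2 the Sox list had 4 in place of 2. Of all CpG-rich genes, 5.02% were closed without replicate 1 and 5.65% without replicate 2.

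The open members of the same lists included factors known from lymphoid cells. Foxo3, a forkhead regulator of cell survival, had a strict promoter peak with the authors' signal score of 16.1 in replicate 1 and 10.9 in replicate 2. Tcf3, which encodes the E proteins of early lymphocytes, scored 9.31 and 6.25, and Sox4, which is active in T cell progenitors, scored 13.007 and 10.4. These genes were named for their roles. Foxn3 (21.2 and 16.7) scored higher than Foxo3, and Hey2 (11.3 and 8.31) scored higher than Tcf3 on the same lists. The open Hox genes with the highest scores were lower: Hoxa4 scored 5.43 and 5.15, and Hoxa7 scored 3.83 and 3.03. The open T-box gene Tbx21 was lower than both, at 1.46 and 1.13, so low scores were not particular to Hox genes. The scale of the score was not stated, so values are compared within a replicate only.

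Within families the pattern was uneven. In the HoxD cluster with its neighbour Evx2, 5 of 7 CpG-rich genes were closed and 2 partly open. In the HoxA cluster, 2 of 7 (Hoxa5 and Hoxa6) were closed, 1 partly open and 4 open. HoxB had 1 closed (Hoxb7) of 2, and HoxC 2 closed (Hoxc8 and Hoxc11) of 4, with no open member in either. The Irx family split into 3 closed (Irx1, Irx4 and Irx6) and 3 partly open genes. Both Gbx and both Cdx genes were closed, as were 2 of 3 Tlx genes (Tlx1 and Tlx3) and 2 of 3 Pou4f genes. These family counts were looked up after the members were known, and none of them was tested.

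Secreted signals and their receptors differed in their counts. Of 66 CpG-rich genes for developmental ligands and their antagonists, 15 were closed (22.7%; 14.3 to 34.2), 19 partly open and 32 open. Of 51 genes for the receptors of those ligands, 1 was closed (1.96%; 0.347 to 10.3), Egfr, the receptor of epidermal growth factor, 12 were partly open and 38 open. The receptor count depended on single libraries. With either replicate left out 4 of the 51 were closed (7.84%), and by the strict lists alone 7 were (13.7%). The ligand genes then had 18 to 21 (27.3% to 31.8%) and 25 (37.9%). Of all CpG-rich genes, 5.02% to 5.65% were closed with a replicate left out and 7.89% by the strict lists. The closed ligand genes included Ihh (a hedgehog ligand), Chrd (chordin, an antagonist of bone morphogenetic proteins), and the Wnt genes Wnt6, Wnt3a, Wnt5a and Wnt2. All 4 Rspo genes, whose secreted products amplify Wnt signalling through Lgr receptors, were closed, at 92 CpGs for Rspo1, 61 for Rspo2, 58 for Rspo4 and 53 for Rspo3. Of 14 CpG-rich Wnt genes, 4 were closed, 4 partly open and 6 open. Among the open genes, the receptor gene Tgfbr1 scored 17.2 and 13.8, and the ligand gene Vegfa scored 11.4 and 7.50, in replicates 1 and 2.

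Neuronal and adhesion genes were also among the closed ones, in numbers that moved with the library. Of 90 genes of axon guidance and synaptic adhesion, 11 were closed (12.2%), with Epha8, Lrrc4b and Adgrb1 highest in CpGs. Neuropeptide and neuronal secretory genes had 8 closed of 61 (13.1%), led by Nptx1, Slc18a3 (the vesicular acetylcholine transporter) and Slc6a11. Neurotransmitter receptors had 5 of 48 (10.4%), led by Grik3, Adra1d and Ntsr1, and 20 more were partly open. Ion channel genes had 6 of 74 (8.11%), among them the potassium channel genes Kcnj12 and Kcnk9. Without replicate 2 the closed genes numbered 16 of 48 (33.3%) among neurotransmitter receptors, 11 of 74 (14.9%) among ion channels and 17 of 90 (18.9%) among guidance and adhesion genes, beside 5.65% of all CpG-rich genes. Without replicate 1 ion channels had 10 (13.5%), beside 5.02% of all CpG-rich genes. Extracellular matrix and protease genes had 8 of 53 (15.1%), led by Emilin3, Adamtsl3 and Fbn2, the gene of fibrillin-2. Cadherins outside the clustered protocadherins had 3 of 21, which were Cdh2 (N-cadherin), Dsg2 and Cdh8, and 6 without replicate 2.

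Of 38 CpG-rich germline and meiosis genes, 9 were closed (23.7%; 12.99 to 39.2), 6 partly open and 23 open. The closed ones were Hsf5, Adad1, Mael, Slc25a31, Fkbp6, Stk31, Rpl10l, Tdrd1 and Tex12. Several are known from the testis: Fkbp6 is needed for chromosome pairing in meiosis, Tex12 is part of the synaptonemal complex, and Tdrd1 acts in the piRNA pathway. Rpl10l, a retrogene of a ribosomal protein gene that is active in the testis, was also the only closed member of the housekeeping list, at 1 of 235 (0.426%; 0.0752 to 2.37). No CpG-rich member of the T cell and lymphoid list was closed, at 0 of 15, which allows a share of up to 20% by counting error. Predicted or unnamed genes, the longest list, had 38 closed of 343 (11.1%), many of them in repeated sequence. Metabolic and solute transporter genes had 8 of 146 (5.48%). They had 17 (11.6%) without replicate 2, a setting in which 5.65% of all CpG-rich genes were closed. Lists could share genes. Of the 8, Slc18a3, Slc6a11, Slc6a7 and Slc6a16 were also on the neuronal secretory list, and Slc25a31 was on the germline list. Numbered zinc finger genes had 4 of 143 (2.80%). Keratins and epithelial junction genes had 2 of 19, and clustered protocadherins 0 of 2, which were 4 and 1 without replicate 2. Genes on none of the 24 lists made up 149 of the closed genes and were closed in 2.14% of 6969 cases. Of the 24 lists, 18 had a share of closed genes over 2 times that of all CpG-rich genes. The lists were chosen with earlier results of these data known. For some of the 18 the interval included the overall 3.83%, as for ion channels (3.77 to 16.6) and keratins (2.94 to 31.4). Predicted or unnamed genes fell to 2.93% in unique sequence, beside 3.44% of all CpG-rich genes there.

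Some groups were noticed among the closed genes and then counted, so their shares are a description of a choice already made. Of 24 CpG-rich imprinted genes, which are expressed from the allele of a single parent, 5 were closed (20.8%): Zdbf2, Nap1l5, Mcts2, Rasgrf1 and Dio3. Of 8 genes of retinoid and vitamin D metabolism, 4 were closed: Lrat, Aldh1a3, Cyp26a1 and Cyp24a1, which store, make or break down these ligands. Of 50 replication-dependent histone genes, 5 were closed, but only 2 of the 50 had a promoter in unique sequence.

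**Figure D2:**
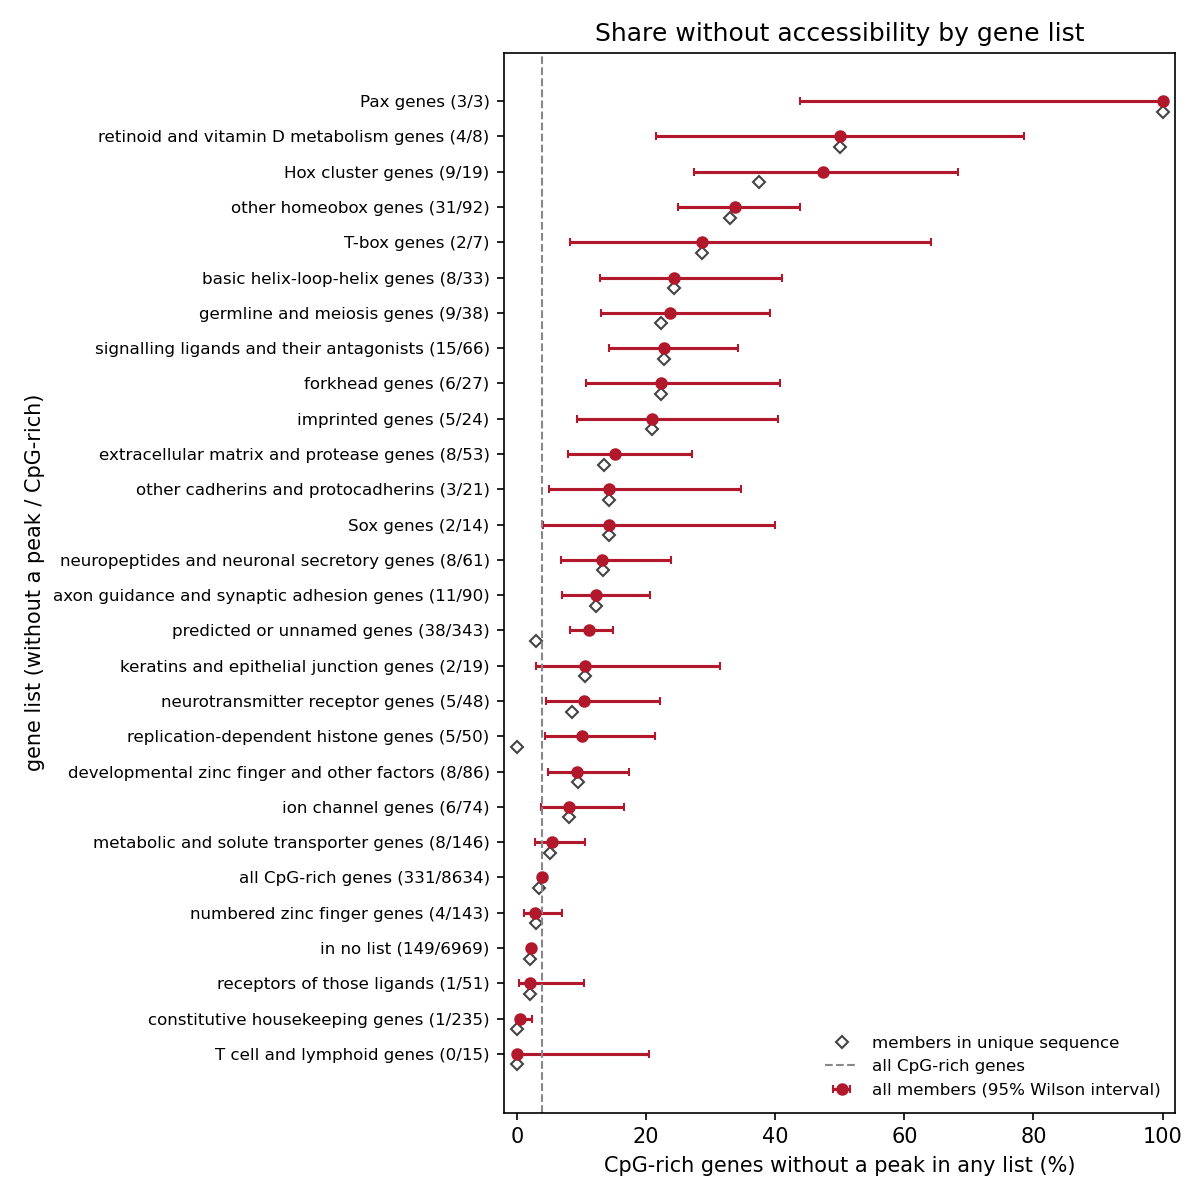
Share of CpG-rich genes without a peak in any list (horizontal axis, %) for each gene list (vertical axis, with the counts behind it); filled points with 95% Wilson intervals are all members, open diamonds the members in unique sequence, and the dashed line is the share over all CpG-rich genes, 3.83%. Homeobox and Hox lists lie at 33.7% and 47.4%, and the diamond of the predicted or unnamed genes lies at 2.93%, left of its point at 11.1%.

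Repeated sequence was more common at closed promoters. For each gene the 31-base words within 500 bp of the 5' end were searched in the whole reference, and 94% of CpG-rich genes had at least 90% unique words. Among closed genes this was 84.3% (279 genes), and among open genes it was 94.3%. At the other end, 32 closed genes (9.67%) and 11 open genes (0.142%) had under 10% unique words. Reads from such promoters match several places of the reference, and how the authors treated them is not given in the sources used here, so their part in the missing peaks was not tested. In unique sequence 3.44% of 8115 CpG-rich genes were closed. The effect on single lists differed. Predicted or unnamed genes fell from 38 closed of 343 (11.1%) to 8 of 273 (2.93%) when only unique sequence was counted, whereas other homeobox genes were at 30 of 91 (33.0%) and ligands at 15 of 66.

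Of the closed genes, 59 (17.8%) lay in 22 clusters in which neighbouring closed 5' ends were at most 100 kb apart. The largest held 7 predicted genes between chr4:88773834 and chr4:88803254 (Gm13290, Gm13289, Gm13272, Gm13276, Gm13278, Gm13279 and Gm13287), and all 7 had 0% unique words. The next was the HoxD cluster between chr2:74659557 and chr2:74711929, with Evx2, Hoxd13, Hoxd9, Hoxd3 and Hoxd4 at 59 to 118 CpGs and 87.4% to 100% unique words. Another held 4 histone genes, Hist1h2bq, Hist1h2ao, Hist1h2ap and Hist1h2br, at 0% unique words. Of 5 clusters of 3, those on chromosomes 12, 14 and 17 were in repeated sequence, with at most 2.57% unique words. They held Fam177a, Srp54b and 1700047I17Rik2 on chromosome 12, at 0% unique words, and Gm16867, Entpd4b and Loxl2 on chromosome 14. On chromosome 17 they were 9030025P20Rik, Gm3417 and Gm3435. The others were Prr23a1, Prr23a3 and Foxl2 on chromosome 9, and Prtn3, Plppr3 and Grin3b on chromosome 10. In 7 clusters every member had under 50% unique words, and in 10 every member had at least 90%. Counting unique members alone left 12 clusters with 25 genes, the largest of 3. In 9 pairs of closed genes the 5' ends lay within 1 kb of each other, and counting such neighbours once left 322 promoters. Hoxd3 and Hoxd4 started 2 bp apart, so that they were 1 promoter and the Hox count was 8 closed of 18 promoters. Ppp1r3d and Fam217b started 52 bp apart, Fabp3 and Gm10570 79 bp, Gm10447 and Shroom1 95 bp, and Lypd4 and Dmrtc2 116 bp. Among genes in unique sequence, the nearest CpG-rich gene was itself closed for 25 of 279 closed genes (8.96%), 34 of 523 partly open genes (6.50%) and 156 of 7313 open genes (2.13%). Pairs such as Ppp1r3d and Fam217b were not counted once in this comparison, and some clusters held only such a pair. The windows of such neighbours nearly coincide, so the rule largely gives both the same call. Ppp1r3d and Fam217b, Gm10447 and Shroom1, Lypd4 and Dmrtc2, and Prtn3 and Plppr3 were in unique sequence and so in this comparison. The share without such pairs was not counted. Whether closed genes would still lie above partly open ones is therefore not known.

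The HoxD cluster was not empty of peaks. Shared strict peaks lay at chr2:74673117-74673233 (scores 1.04 and 0.857 in replicates 1 and 2), 4807 bp from the 5' end of Hoxd13, and at chr2:74702321-74702480 (scores 1.36 and 1.85), 4594 bp from that of Hoxd9. Each held 2 footprints found in both replicates. In the HoxA cluster the replicates differed: within 50 kb of the closed genes Hoxa5 and Hoxa6, replicate 1 had 10 strict distal peaks and replicate 2 had 1. Only 1 peak was shared, so the count near these 2 genes is that of the shared peak.

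The nearest peak of any list lay a median of 9914 bp from the closed 5' ends (quartiles 3855 and 27333 bp). It was within 2 kb for 12.1% of the closed genes, within 5 kb for 30.5% and over 50 kb away for 16.9%. The first 1 kb was kept free by the rule. Measured from any TSS of the gene, as the rule does, the genes just outside that limit were Cdc42ep1 (1037 bp), Hist2h3c1 (1085 bp), Ppp2r2c (1105 bp), Pax2 (1106 bp) and Cbln4 (1114 bp). Just inside it, and so not closed, were Ly6h (992 bp), Adcyap1r1 (985 bp), Wnt9a (971 bp), Rtn4rl2 (968 bp) and Marc1 (933 bp). The farthest were the predicted genes Gm21953 (519987 bp), Gm21586, Gm3020, Gm3500 and Gm3488, which had at most 1.24% unique words. In unique sequence the farthest were Fign (292398 bp), Plpp4 (212570 bp), Vstm2a (186297 bp), Ndst3 (173793 bp) and Irx1 (156922 bp).

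Distal peaks were counted as strict peaks of both replicates over 1 kb from every TSS and within 50 kb of the gene's 5' end. Closed genes had a median of 1 such peak (mean 1.79) and open genes a median of 2 (mean 2.63), a ratio of means of 0.683. In single replicates the closed mean was 2.10 in replicate 1 and 2.36 in replicate 2. In unique sequence the median of shared peaks was 2 for closed and 2 for open genes, with means of 1.93 and 2.62. No shared distal peak was found near 121 closed genes (36.6%; 31.5 to 41.9), 43.4% of partly open and 17.2% of open genes, beside 19.6% of all CpG-rich genes. The difference depended on how many genes lay around. Where up to 9 protein-coding genes lay within 500 kb, closed genes had a mean of 0.769 distal peaks and open genes 1.90, and 60.3% of the closed genes had none. With 10 to 20 neighbours the means were 1.75 and 2.67. With over 20 neighbours they were 3.18 and 3.32, a ratio of 0.960.

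**Figure D3:**
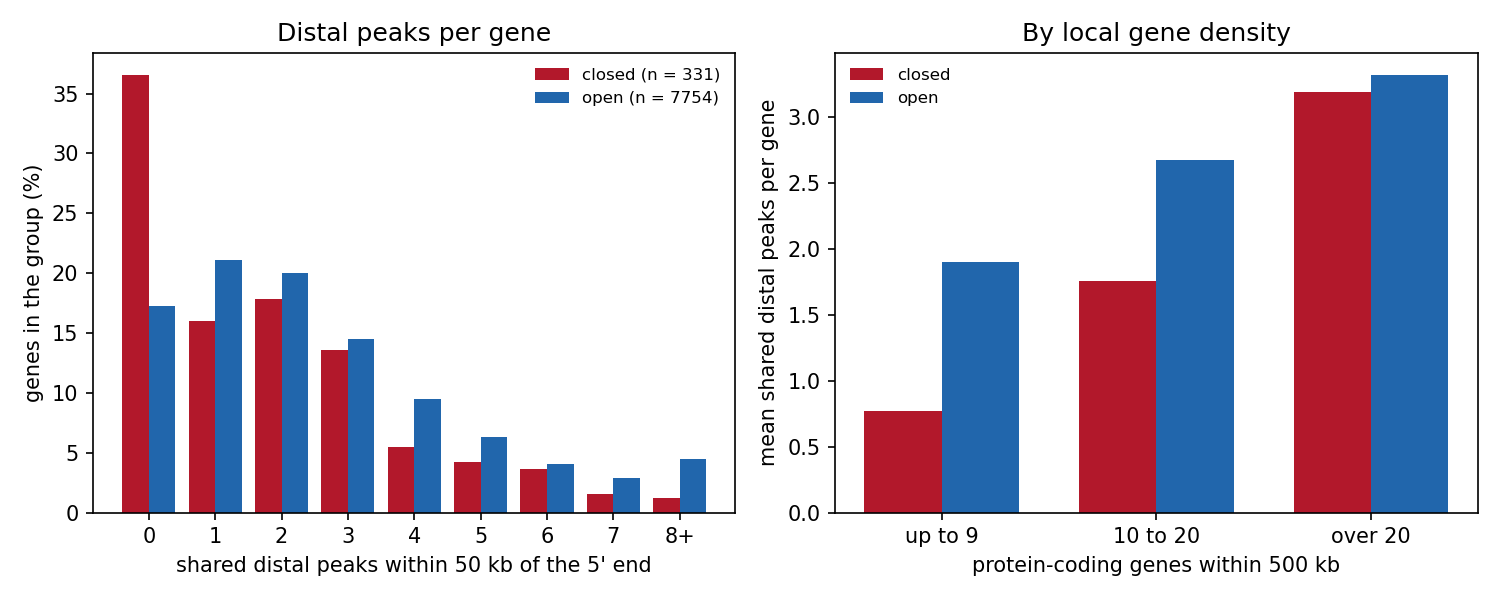
Left, the percentage of closed and of open CpG-rich genes (vertical axis) with each number of shared distal peaks within 50 kb of the 5' end (horizontal axis); right, the mean number per gene by the count of protein-coding genes within 500 kb, with no error bars because genes of a sample are not replicates. Closed genes stand above open ones at 0 peaks, 36.6% against 17.2%, and the means draw together at over 20 neighbours, 3.18 and 3.32.

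Some closed promoters lay amid many distal peaks. The predicted gene 4933428G20Rik had 11 shared distal peaks (12 in replicate 1 and 13 in replicate 2) and no peak at its own TSSs. Cdc42ep1, which encodes a Cdc42 effector, also had 11 (12 and 11), with open promoters of Gga1 and Card10 within the same 50 kb. Lrfn3, a synaptic adhesion gene, had 9 (10 and 10), and Wnt6 had 8 (9 and 8). BC107364, Cldn3, Cygb, Gcgr and She had 7 each, and 1600014C23Rik had 6. The strongest distal peak near Lrfn3, chr7:30373601-30373860, scored 7.75 and 5.62 in replicates 1 and 2, and that near Wnt6, chr1:74816901-74817160, scored 7.07 and 5.48. No open CpG-rich promoter lay within 50 kb of 4933428G20Rik, Lrfn3, Wnt6 or She. Which gene a distal peak acts on is not measured by DNase-seq.

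Within 50 kb of closed promoters lay 545 distal peaks, 285 of which (52.3% of these, and 2.22% of those near open promoters) were also within 50 kb of an open promoter. Their median width was 200 bp and their median number of shared footprints was 2, as for the 12831 distal peaks near open promoters. Their median score was 1.44 in replicate 1 and 1.62 in replicate 2, against 1.64 and 1.60 near open promoters. The sequence content differed more. A match to the site of CTCF, the insulator protein that anchors chromatin loops, was searched on both strands as a 16-base consensus with up to 1 mismatch at its fixed bases. It was found in 121 of the 545 peaks near closed promoters (22.2%; 18.9 to 25.9), in 12.5% (11.96 to 13.1) of those near open promoters, and in 12.3% of all 28782 autosomal distal peaks.

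The higher share was not particular to closed promoters. Near partly open promoters it was 22.1% of 863 peaks (19.5 to 25.02). Near genes with fewer CpGs and no promoter peak it was 16.3% of 5467, and away from all CpG-rich genes it was 11.5% of 15269. Near closed promoters and no open one it was 67 of 260 peaks (25.8%). The 63 peaks near closed homeobox genes held a match in 31.7% of cases (21.6 to 44.0), and those near other closed genes in 20.9% (17.5 to 24.7). By local gene density, from low to high, the shares near closed promoters were 25.8%, 28.8% and 16.4%, and near open promoters 10.4%, 12.6% and 14.4%. Of the 121 matching peaks near closed promoters, 118 (97.5%) had the match under a footprint found in both replicates, as did 98.1% near open promoters. Of the 210 closed genes with any distal peak within 50 kb, 93 had one with a match (44.3%; 37.7 to 51.05), against 32.1% (31.002 to 33.3) of 6417 open genes. Partly open genes had one in 146 of 311 cases (46.9%; 41.5 to 52.5).

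The matches nearest to closed homeobox genes show the core of the site, with capitals marking the 16 searched bases. They lie in distal peaks 6994 bp from the 5' end of Uncx, 9122 bp from that of Lhx5 and 9302 bp from that of Gbx2, and each lies under a footprint of both replicates. The mm10 positions are chr5:139536418-139536447, plus strand, for Uncx, chr5:120440901-120440930, minus strand, for Lhx5, and chr1:89940576-89940605, minus strand, for Gbx2.
Uncx: gagattcCCGCCAGGGGGCGCTGcttccct
Lhx5: cattgagCCACCAGGGGGCGCCAactcgca
Gbx2: accgcggCGGGCAGGGGGCGCAGgcgagtc
The peak near Lhx5 scored 2.82 in replicate 1 and 3.85 in replicate 2, that near Uncx 0.963 and 1.70, and that near Gbx2 1.67 and 1.86.

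**Figure D4:**
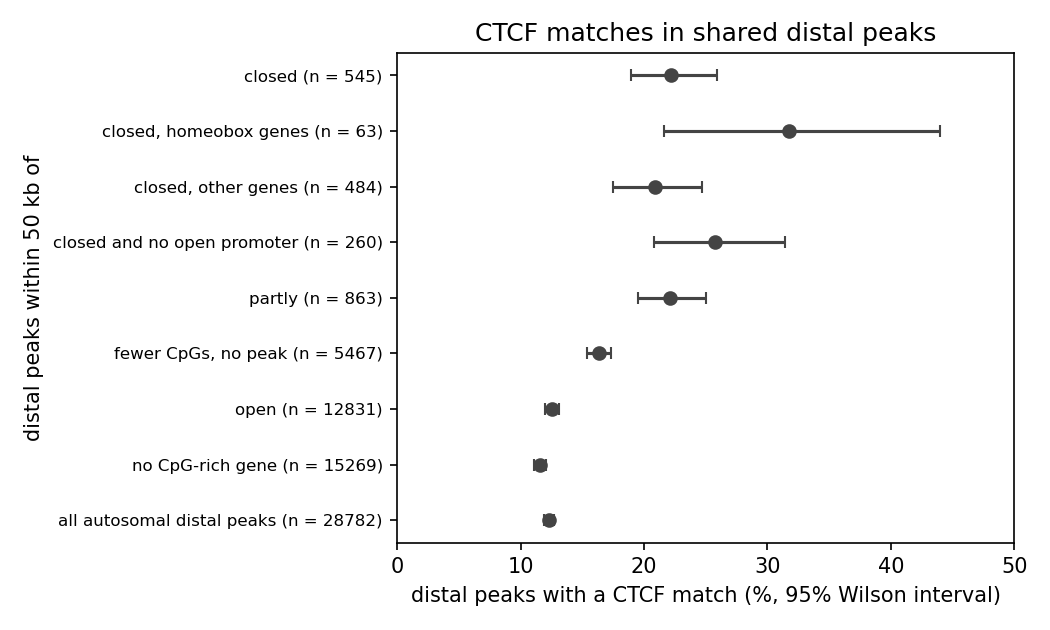
Percentage of shared distal peaks with a CTCF match (horizontal axis, with 95% Wilson intervals) among peaks within 50 kb of each kind of promoter (vertical axis, with the number of peaks). Peaks near closed and partly open promoters lie at 22.2% and 22.1%, and those near open promoters at 12.5%.

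No footprint of either replicate lay within 1 kb of a TSS of a closed gene: 0 of 331 genes in each, which allows a share of up to 0.906%. A footprint found in both replicates was present at 98.98% of open genes, 13.1% of partly open genes and 89.7% of all CpG-rich genes. The medians of open genes were 12 footprints in replicate 1 and 11 in replicate 2. This absence adds no separate evidence. Footprints and peaks came from the same libraries, and 99.7% of autosomal footprints in replicate 1 and 99.6% in replicate 2 lay on bases that the FDR track lists at under 0.05. In a loose peak of their own replicate lay 79.6% of them in replicate 1 and 84.5% in replicate 2, so some lay outside those peaks.

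The FDR track gave weak traces at a few closed promoters. A stretch under 0.05 lay within 1 kb of a TSS at 27 closed genes (8.16%) in replicate 1 and at 33 (9.97%) in replicate 2, with 5 genes in both and 55 in either. The shares were 77.2% and 85.6% for partly open genes and 100% in both replicates for open genes. Outside Cdc42ep1 the lowest values per gene and replicate lay between 0.0162 and 0.0499, near the limit, as at Six2, whose lowest FDR was 0.0336 in replicate 2 with no stretch in replicate 1, and at Irx1, at 0.0325 in replicate 1 with none in replicate 2. A stretch at 0.001 or lower was found at a single closed gene, Cdc42ep1, at 3.75e-09 in replicate 1 and 2.38e-10 in replicate 2. This is also the closed gene whose nearest peak, at 1037 bp, lay closest to the 1 kb limit. Without the 55 genes, an alternative chosen after seeing the data, 276 closed genes (3.20% of CpG-rich genes) remained.

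Several sequence motifs known from constitutive promoters were rarer in closed than in open promoters. Others were not clearly so, among them the GC box of SP and KLF factors, at 24.2% and 28.4%. From 250 bp upstream to 50 bp downstream of the 5' end, both strands were searched for 17 motifs. The NRF1 palindrome was found in 1 of 331 closed promoters (0.302%; 0.0534 to 1.69), 2.62% (2.29 to 2.998) of open ones and 1.25% of all protein-coding promoters. The ETS site CCGGAAGT was found in 4 closed promoters (1.21%; 0.471 to 3.07), 8.77% (8.16 to 9.42) of open and 4.80% of all. The CREB site TGACGTCA was found in 3 closed promoters (0.906%), 4.23% of open and 2.43% of all. The RFX box, with up to 2 mismatches at its fixed bases, was found in no closed promoter, which allows up to 0.906%, and in 2.82% of open and 2.39% of all. For these 4 motifs the intervals of closed and open promoters did not overlap. The YY1 site was in 0.302% of closed, 1.68% of open and 0.779% of all promoters. The palindrome linked to ZBTB33 was in 0.302%, 1.34% and 0.625%, and the extended E-box TCACGTGA, bound by MGA in complexes that silence germline genes, was in 0.302%, 2.06% and 1.09%. The intervals overlapped for YY1 and ZBTB33 and did not for the extended E-box.

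These 7 motifs were grouped after their shares were seen. At least 1 of them was present in 10 closed promoters (3.02%; 1.65 to 5.47), 20 partly open promoters (3.64%; 2.37 to 5.56), 1641 open promoters (21.2%; 20.3 to 22.1) and 12.2% of all promoters. In unique sequence it was 9 of 279 closed promoters (3.23%). Among genes of the 8 transcription factor lists it was 1 of 69 closed (1.45%; 0.256 to 7.76) and 17 of 133 open (12.8%; 8.14 to 19.5), and among genes on no list 7 of 149 closed (4.70%) and 21.7% of 6548 open. The lower CpG number of closed promoters was matched by weighting open promoters to the CpG bins of the closed ones, which gave 2.55% for NRF1, 9.50% for ETS and 4.24% for the CREB site.

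For other motifs the intervals of closed and open promoters overlapped. The GC box GGGGCGGGG of SP and KLF factors was in 24.2% (19.9 to 29.1) of closed, 28.4% of open and 14.8% of all promoters. The E-box CACGTG, whose matches include those of the extended E-box, was in 10.9% of closed, 11.4% of open and 7.82% of all. The E2F site TTCCCGCC was in 4.53%, 5.36% and 2.97%, the CCAAT box CCAATCAG in 4.23%, 6.13% and 4.59%, and the CTCF site in 6.04%, 6.84% and 3.70%. In unique sequence the CTCF share of closed promoters was 3.58% (10 of 279; 1.96 to 6.47), and the interval of all open ones was 6.29 to 7.42. The RE1 element of the neuronal repressor REST was in 0.302% of closed, 0.284% of open and 0.250% of all promoters. Higher in closed than in open promoters were the homeodomain core TAATTA (3.02%; 1.65 to 5.47, against 1.39%, and 5.21% of all) and the GATA site AGATAA (5.44%; 3.47 to 8.43, against 4.02%, 3.61 to 4.48, and 9.94% of all). For both the intervals overlapped. In unique sequence the homeodomain share of closed promoters was 3.58% (10 of 279, interval 1.96 to 6.47). The interval of all open promoters was 1.16 to 1.68. Within 500 bp either side of the 5' end the homeodomain order held, with 9.06% of closed and 6.86% of open promoters. For GATA the order turned there, with 13.3% of closed and 16.2% of open promoters. Closed promoters were lower than open ones in 14 of the 17 motifs. A match is a run of letters, and a missing match says nothing of whether a factor binds.

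Matches in open promoters were set against the deposited footprints, with an overlap of at least 1 bp. Of 211 NRF1 matches in open promoters, 203 (96.2%; 92.7 to 98.1) lay under a footprint found in both replicates, and of 343 CREB site matches 93.0% did. Of all 10-base stretches of the open promoter windows, 32.3% overlapped such a footprint, and of all 8-base stretches 30.2%. The share was 96.3% of 107 ZBTB33, 78.2% of 3177 GC box, 70.3% of 760 ETS, 69.7% of 343 RFX, 55.0% of 131 YY1 and 49.8% of 512 CCAAT box matches. The NRF1 and ETS matches at closed promoters had none, since no footprint lay there. They are set here beside matches in open housekeeping promoters, 30 bases each with the motif in capitals, to show that the same letters occur in both. The NRF1 match of the closed gene Stk31 (chr6:49395521-49395550, plus strand) started 73 bp upstream of the 5' end, and that of the open gene Cox6a1 (chr5:115349101-115349130, plus strand), a subunit gene of cytochrome c oxidase, started 139 bp upstream.
Stk31: gcagcacctcGCGCATGCGCaggcgcagtg
Cox6a1: gagcgagagcGCGCATGCGCcccgttcctg
The 4 closed promoters with an ETS match were those of Spint1, Mcts2, Fkbp6 and Gprin1. The match lay at chr2:119237251-119237280, plus strand, for Spint1, a protease inhibitor gene of epithelia, and at chr2:152686995-152687024, plus strand, for the imprinted retrogene Mcts2. The open gene set beside them is Cox15, a gene of heme A synthesis, at chr19:43752975-43753004, minus strand.
Spint1: ggcgggtccagCCGGAAGTtctgctgggca
Mcts2: ctttcttgcaaCCGGAAGTccggagaggag
Cox15: cgacgcctgacCCGGAAGTgcttgttcttt

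**Figure D5:**
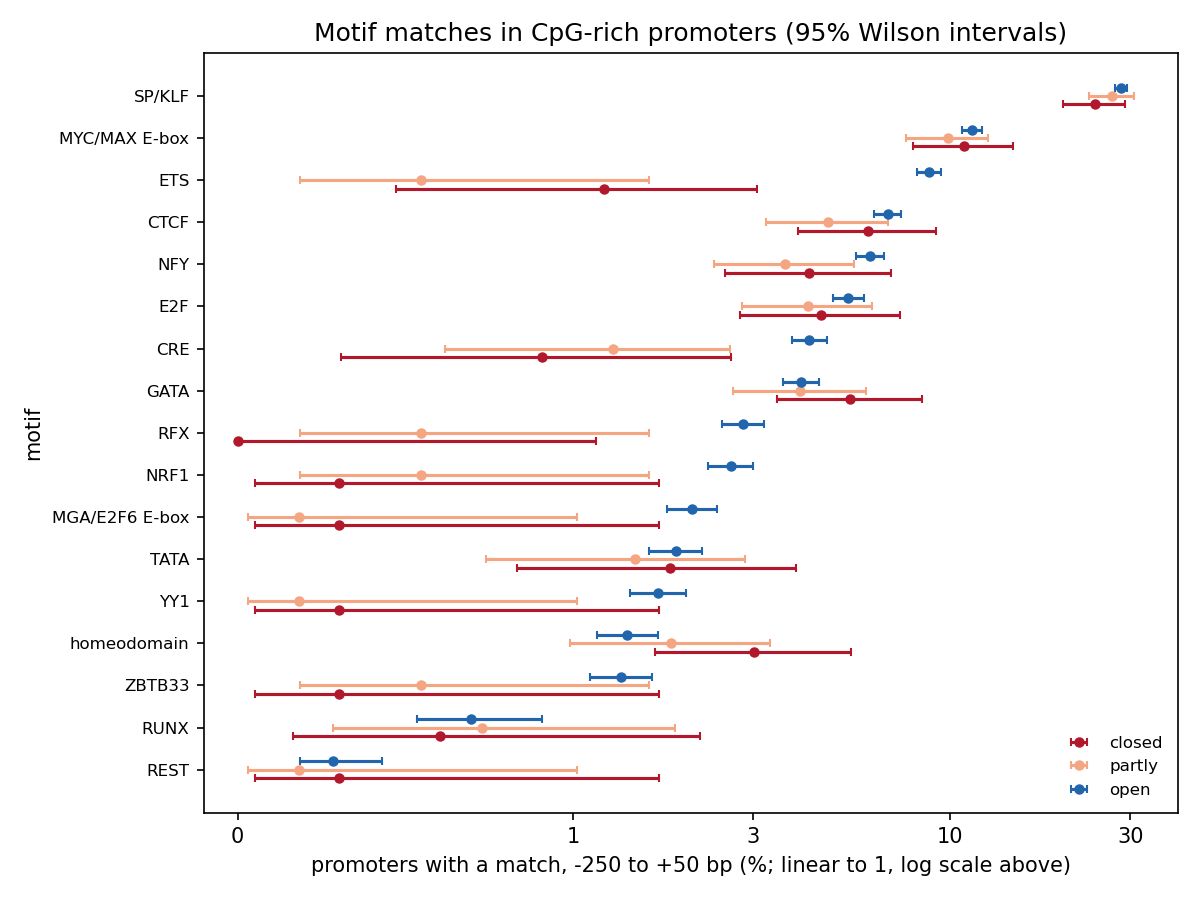
Percentage of closed, partly open and open CpG-rich promoters with a match to each of 17 motifs between 250 bp upstream and 50 bp downstream of the 5' end (horizontal axis, linear up to 1% and logarithmic above, with 95% Wilson intervals). The ETS, CREB (CRE), RFX and NRF1 points of closed promoters lie left of the open ones, and those of the GC box (SP/KLF), 24.2% and 28.4%, lie close together.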

How the data were processed

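DNase-seq of 2 thymus samples was analysed from the deposited files on mm10. Per the file headers and accompanying notes, the authors made peak lists, FDR tracks and footprints from each library's own alignments, with replicates not pooled. No source used here names the aligner or the callers. The peak score is the authors' signal value of each peak, on a scale that is not stated. The FDR tracks deposited by the authors are treated as p-value-like numbers and list only stretches under 0.05, and the footprints carry a constant of 0.01, so their positions alone were used. Peaks within a list that overlapped by at least 1 bp were joined. The read depth is not given by the files, so it sets no interval here. Wilson intervals (95%) and limits of 3 counts for a count of 0 cover counting error over genes or peaks only.

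The peak lists of each replicate were told apart and named strict and loose by their length only. GENCODE M21 supplied the genes, TSSs and support levels, and the GRCm38 assembly supplied all sequences. Words of 31 bases were counted over 65 reference sequences. The members, the gene lists and the motifs were chosen with earlier results of these data known, and 3 of the lists after the members had been seen. Some items that the naming rule picks are not reported here. Named genes were, in each list, the closed genes with the most CpGs and the open genes with the highest scores, the 10 closed genes with the most CpGs and with the most distal peaks, the 5 with the farthest peak, the members of the 6 largest clusters, and the genes at the limits of the rule. A rule for genes with the most shared footprints named none, because closed genes had none. Family counts and genes with known roles in the tissue were added after their values were seen. No statistical test was made, since the peak calls define the groups and 2 samples of 1 group leave nothing to compare. Counting was tested on simulated peaks and sequences. Python 3.11.15, numpy 2.4.6, pandas 2.3.3, numba 0.67.0 and pysam 0.24.0 were used.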

Additional observations from a re-analysis of the deposited data

How the results depend on the processing

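The number of closed genes was 331, and 235 to 445 under other CpG limits and windows, promoter windows, start sites, annotation support or uniqueness. It was 681 (7.89%) when the strict lists alone were used. Leaving out 1 replicate gave 433 to 488. The ratio of mean distal peaks, closed to open, was 0.683. It was 0.605 when peaks were counted from any TSS, 0.736 in unique sequence (a choice made after seeing the data), and 0.405 and 0.960 where gene density was lowest (up to 9 genes within 500 kb) and highest (over 20). Leaving out 1 replicate gave 0.641 to 0.695. The cause of these shifts was not tested. The number of gene lists over 2 times the whole was 18, and 17 to 20 under the alternatives. Clusters numbered 22, and 17 or 31 with gaps of 50 or 200 kb. The share of closed promoters with a footprint was 0% under the windows tried. Those windows lay within the main one, where neither replicate had a footprint, so they could give no other value. Closed promoters were lower in 15 of 17 motifs when 500 bp either side were searched. Read depth, which limits how weak an accessible promoter can be called, was not known. No paired analysis was possible because the study has a single group.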
